A study of Mus musculus with 3 samples.

Results

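The 10 genes described here encode the secreted TGF-beta ligands (Tgfb1, Tgfb2, Tgfb3), the latent TGF-beta binding proteins (Ltbp1, Ltbp2, Ltbp3, Ltbp4) and their receptors (Tgfbr1, Tgfbr2, Tgfbr3). They were chosen by gene symbol, and all 10 of the 10 were found among the 15503 genes listed for mouse left ventricle. Each genotype is represented by 1 library made from the pooled RNA of 3 mice, so there are 3 libraries and no replicate. The first library, Egln1_Tie2Cre, comes from mice in which Cre driven by the Tie2 promoter deletes Egln1, the gene of the oxygen-sensing enzyme PHD2. The second, Egln1_Hif2a_Tie2Cre, comes from mice labelled as deleted by the same Cre for Egln1 and for Hif2a, the HIF subunit encoded by Epas1. The control, Egln1_floxed, comes from mice with floxed Egln1, which the design text calls wild type. All mice are C57BL6J, their age is not given in the sources used here, and Tie2 is active in endothelial cells and in blood-forming cells. By its title the study is about hypertrophy and fibrosis of the heart after PHD2 is lost from endothelium, and TGF-beta is a main driver of fibrosis. The sex of the mice is likewise not given.

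TGF-beta cytokines are made as inactive complexes in which the ligand stays bound to its own propeptide. Most latent TGF-beta binding proteins attach to that propeptide and tether the complex to the extracellular matrix, from which integrins and proteases release the active ligand. The active ligand binds the type II receptor (Tgfbr2), which then phosphorylates the type I receptor (Tgfbr1) and so starts SMAD2 and SMAD3 signalling, while betaglycan (Tgfbr3) presents ligand to them. In the heart the pathway is best known for turning fibroblasts into matrix-producing myofibroblasts.

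In the Egln1_Tie2Cre library, Ltbp2 and Tgfb2 stood higher than in the Egln1_floxed library, by 3.81-fold and 1.79-fold in FPKM, a read abundance corrected for transcript length and for library size. The receptors stood at or below the control in both deleted libraries. Ltbp2 was the member with the widest range over the 3 libraries, and it was lowest in Egln1_Hif2a_Tie2Cre, 5.87-fold below Egln1_Tie2Cre. Egln1_Hif2a_Tie2Cre lay within 1.54-fold of Egln1_floxed for all 10 genes.

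The ratios are read against the state of the libraries. Low FPKM values of genes with a single annotated transcript lay on steps, as whole fragments do: 83.8% of 74 low values in Egln1_Tie2Cre, 87.1% of 62 in Egln1_Hif2a_Tie2Cre and 90.8% of 65 in Egln1_floxed lay within 0.1 of a whole fragment, where evenly spread values would give 20%. The step sizes were chosen for their fit to these same values. The 20% holds for a step set in advance, so the contrast with it is wider than it should be. The step sizes correspond to about 21700000, 28600000 and 23000000 fragments on the authors' scale, in that order. Egln1 itself had an FPKM of 95.7 in Egln1_Tie2Cre, 129.0 in Egln1_Hif2a_Tie2Cre and 129.5 in Egln1_floxed, so the library labelled Egln1_Hif2a_Tie2Cre showed no lower Egln1 in whole ventricle, and every direction given for it rests on its label. Epas1 was 65.0, 54.5 and 77.4 in the same order. The cardiomyocyte genes Myh6 and Tnnt2 were abundant throughout, at 3645 to 6691 and 7761 to 8947. Markers of atrial tissue were higher in Egln1_Tie2Cre, with a summed FPKM of 1995, against 351 in Egln1_Hif2a_Tie2Cre and 217 in Egln1_floxed (5 of 6 listed). Nppa, a stress-responsive natriuretic peptide, carries that sum, which without it is 137, 95.3 and 56.9 in the same order, and Sln, a calcium-pump regulator, was highest in Egln1_Hif2a_Tie2Cre (10.6, 16.4 and 7.85). Pseudogenes kept had a median log2 ratio of 3.47 for Egln1_Tie2Cre over Egln1_floxed (260 genes) and 0.00292 for Egln1_Hif2a_Tie2Cre over Egln1_floxed (113 genes). For Egln1_Hif2a_Tie2Cre over Egln1_Tie2Cre it was -3.46 (272 genes). A pseudogene can pass the minimum mean FPKM of a pair through the Egln1_Tie2Cre library alone. That filter can raise the first median and lower the third, so they describe the copies kept and not all such copies. Medians without the filter were not computed for pseudogenes, and the cause of their high values in Egln1_Tie2Cre was not tested. For each member, the share of its 75-base stretches also found in transcripts of another gene was at most 8.21%, and for the members above 1% those were genes overlapping it on the chromosome.

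The sequence just before the RefSeq start of Ltbp2 and of Tgfb2 is shown because these are the members at least 1.5-fold higher in Egln1_Tie2Cre, and the deleted genes act through HIF, which binds a short core motif. Each line gives 250 bases of RefSeq sequence (GRCm38.p6, 5′ to 3′ on the gene's strand) up to the start site, with ACGTG or GCGTG on either strand in capitals. The Ltbp2 window is chr12:84876492-84876741, minus strand, and the Tgfb2 window is chr1:186705990-186706239, minus strand. For Ltbp2 the GENCODE gene, used for the positions below, starts at 84876532. The last printed Ltbp2 bases, with the marked GCGTG, therefore lie inside that gene.
Ltbp2: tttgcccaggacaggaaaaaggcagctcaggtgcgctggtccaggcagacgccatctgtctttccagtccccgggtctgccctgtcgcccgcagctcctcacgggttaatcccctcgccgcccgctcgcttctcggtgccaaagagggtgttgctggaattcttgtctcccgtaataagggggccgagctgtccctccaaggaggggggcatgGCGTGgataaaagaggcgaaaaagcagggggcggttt
Tgfb2: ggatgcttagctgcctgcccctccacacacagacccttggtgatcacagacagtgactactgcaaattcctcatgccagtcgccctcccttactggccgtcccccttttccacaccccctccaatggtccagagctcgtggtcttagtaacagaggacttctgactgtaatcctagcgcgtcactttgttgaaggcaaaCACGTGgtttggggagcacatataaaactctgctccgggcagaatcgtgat

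Counted from the start site, with negative positions before it, Ltbp2 holds a single GCGTG core at -37. Tgfb2 holds ACGTG on both strands, at -51 and -50, which together form the E-box CACGTG, a motif of other factors as well. The core was searched from 250 bases before to 50 bases after each start, and 43.8% of 32851 RefSeq windows of that length hold it. It was found in 9 of the 12 windows listed for the members and in a window of each of the 8 members with an entry, including members whose FPKM barely differed. Windows 2 and 3 of Ltbp4 overlap and share their GCGTG (at -117 and -102), so that site is counted more than once. CACGTG lies in 7.15% of all windows and CAGAC, a SMAD-binding motif, in 49.6%. CAGAC occurs 3 times in the Ltbp2 window (at -205, -176 and 29, the last outside the printed bases) and 2 times in that of Tgfb2 (at -221 and -204). Tgfb3 and Tgfbr3 have no entry. A match is a description of the letters only, and gene-level FPKM does not show which start site was used.

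Tgfb1, the main TGF-beta isoform of platelets, immune cells and injured tissue (GRCm38 chromosome 7, plus strand, 25687002 to 25705077), had an FPKM of 12.2 in Egln1_Tie2Cre, 11.3 in Egln1_Hif2a_Tie2Cre and 9.48 in Egln1_floxed. Both deleted libraries stood above the control, by 1.29-fold and 1.19-fold, though with the same total of all genes in each library the log2 ratio of Egln1_Hif2a_Tie2Cre over Egln1_floxed turns to -0.04, where the median of all genes is -0.26. About 525, 638 and 431 fragments lay behind these values, and the 95% counting interval (exact, Clopper-Pearson) was 1.13 to 1.47 for the first ratio and 1.05 to 1.35 for the second. These intervals, here and below, cover counting error only and say nothing of the spread between mice. Macrophage markers, from a cell type that makes Tgfb1, had a summed FPKM of 148 in Egln1_Tie2Cre, 304 in Egln1_Hif2a_Tie2Cre and 208 in Egln1_floxed (9 of 10 listed), and platelet markers 22.1, 30.1 and 21.5 (3 of 5). Pf4 carries the platelet sum, and without it the sum is 0.627, 0.945 and 2.33, lower in both deleted libraries than in the control. Neutrophil markers summed to 56.3, 10.1 and 2.18 (4 of 6), and T and B cell markers to 2.35, 1.81 and 1.24 (5 of 7), both in the library order of Tgfb1. The part of these cells in the Tgfb1 values was not tested. The intervals take each gene's fragments from the length of its principal transcript and are approximate.

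Tgfb2, the isoform that needs betaglycan for efficient receptor binding and that is prominent in heart development (GRCm38 chromosome 1, minus strand, 186622792 to 186705989), had an FPKM of 3.63 in Egln1_Tie2Cre, 2.34 in Egln1_Hif2a_Tie2Cre and 2.03 in Egln1_floxed. Egln1_Tie2Cre stood apart above the other libraries, which lay close together. The Egln1_Tie2Cre value was 1.79 times the Egln1_floxed value (counting interval 1.51 to 2.11), and 8.79% of all genes kept had a log2 ratio at least as high. The Egln1_Hif2a_Tie2Cre value was 1.15 times the Egln1_floxed value (0.974 to 1.37), a difference not detectable at this depth. Its antisense neighbour overlaps 2.14% of the exon bases.

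Tgfb3, the isoform best known from palate and lung development (GRCm38 chromosome 12, minus strand, 86056745 to 86079041), had an FPKM of 5.38 in Egln1_Tie2Cre, 5.31 in Egln1_Hif2a_Tie2Cre and 5.55 in Egln1_floxed. It was the steadiest member, with the highest value 1.05 times the lowest. No pair of libraries differed beyond counting error, the interval being 0.842 to 1.12 for Egln1_Tie2Cre over Egln1_floxed.

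By FPKM, which is scaled per length and so can be compared between genes, Tgfb1 made up most of the ligand transcripts in every library: 57.6% in Egln1_Tie2Cre, 59.6% in Egln1_Hif2a_Tie2Cre and 55.6% in Egln1_floxed. Tgfb2 was the smallest part, at 17.1%, 12.3% and 11.9% in the same order. The summed ligand FPKM was 21.2, 19.0 and 17.1.

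**Figure D1:**
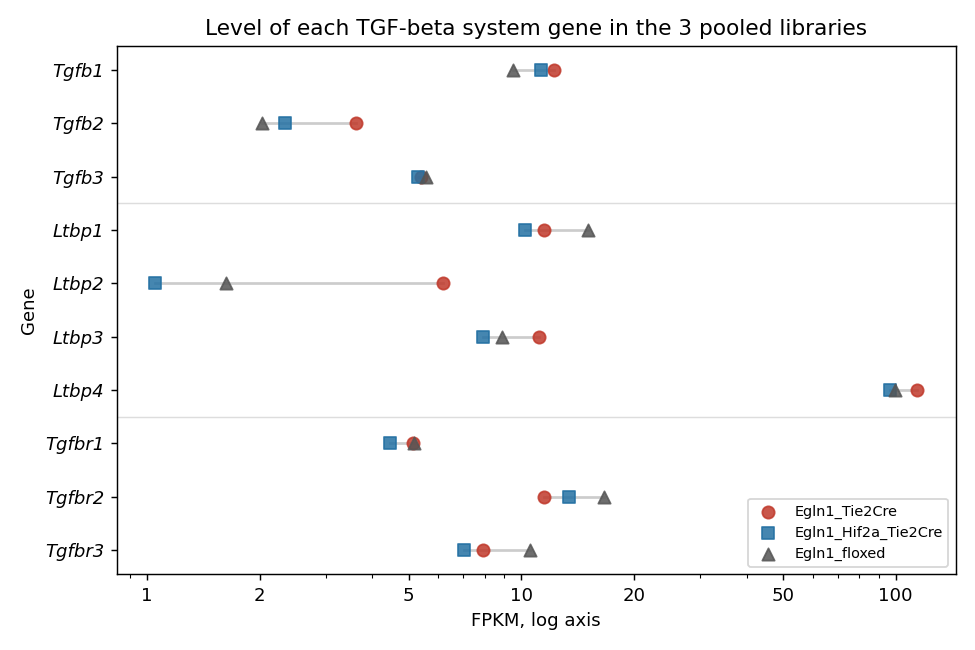
FPKM (log axis) of each gene in the 3 pooled libraries, 1 point per library, with a grey line over the range. Ltbp2 spans 1.05 to 6.18 FPKM and Tgfb3 5.31 to 5.55, while all Ltbp4 values (96.6 to 114) lie above those of every other gene.

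Among the latent TGF-beta binding proteins, Ltbp2 (GRCm38 chromosome 12, minus strand, 84783212 to 84876532) carried the largest difference. The protein is an elastic-fibre component that, unlike Ltbp1, Ltbp3 and Ltbp4, is not known to bind the latent TGF-beta complex covalently. Ltbp2 had an FPKM of 6.18 in Egln1_Tie2Cre, 1.05 in Egln1_Hif2a_Tie2Cre and 1.62 in Egln1_floxed. Only the Egln1_Tie2Cre library was high, at a level above 52.7% of the genes listed in all libraries, while the other libraries placed the gene above 21.5% and 27.2% of them. Egln1_Tie2Cre over Egln1_floxed was 3.81 (counting interval 3.29 to 4.41, from about 860 and 239 fragments), a log2 ratio of (FPKM + 1) of 1.45 that 2.72% of all genes kept reached or passed. Egln1_Hif2a_Tie2Cre over Egln1_Tie2Cre was 0.170 (0.145 to 0.199), a log2 ratio of -1.81, and 2.34% of all genes were at or below it. All genes kept include pseudogenes, 73.8% of which were at least 2-fold higher in Egln1_Tie2Cre than in Egln1_floxed. Ranks of members among protein-coding genes alone were not computed. Egln1_Hif2a_Tie2Cre over Egln1_floxed was 0.649 (0.532 to 0.785), on about 192 and 239 fragments.

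An antisense gene, D030025P21Rik, overlaps 9.34% of the Ltbp2 exon bases. Its FPKM was 0.574 in Egln1_Tie2Cre, 0.129 in Egln1_Hif2a_Tie2Cre and 0.0803 in Egln1_floxed, highest in the same library as Ltbp2, and without a stated strand setting its reads and those of Ltbp2 cannot be told apart there. Of 7 epicardial and mesothelial markers, 4 were listed in all libraries. Their summed FPKM was 24.4 in Egln1_Tie2Cre, 2.42 in Egln1_Hif2a_Tie2Cre and 2.70 in Egln1_floxed. Wt1, an epicardial transcription factor, was 10.2, 1.60 and 2.25, and Krt19, a keratin, was 13.7, 0.169 and 0.218. Upk3b, a defining mesothelial marker, was 0.0429, 0.538 and 0.122, and Msln, Upk1b and Lrrn4 are not in the tables. Fibroblast markers had a summed FPKM of 985, 976 and 835 (10 of 10 measured), with 1 at least 1.5-fold higher and 1 lower in Egln1_Tie2Cre than in Egln1_floxed and a median log2 ratio of -0.06. Without Gsn and Dcn, which carry that sum, it is 177, 212 and 186. The part of these cell types in the Ltbp2 difference was not tested, and in whole tissue fewer cells of a type and less RNA per cell cannot be told apart.

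Ltbp1, which binds latent complexes of all TGF-beta isoforms (GRCm38 chromosome 17, plus strand, 75005568 to 75392512), had an FPKM of 11.5 in Egln1_Tie2Cre, 10.2 in Egln1_Hif2a_Tie2Cre and 15.1 in Egln1_floxed. Both deleted libraries were below the control, at ratios of 0.761 (0.705 to 0.821) and 0.680 (0.632 to 0.731). The second lies among the lower tail of all genes, since 95.3% of genes kept had a higher or equal log2 ratio.

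Ltbp3, which binds the same complexes and is needed for skeletal and arterial integrity (GRCm38 chromosome 19, plus strand, 5740904 to 5758532), had an FPKM of 11.1 in Egln1_Tie2Cre, 7.89 in Egln1_Hif2a_Tie2Cre and 8.89 in Egln1_floxed. Egln1_Tie2Cre was highest, at 1.25 times Egln1_floxed (1.15 to 1.36), and Egln1_Hif2a_Tie2Cre was 0.709 times Egln1_Tie2Cre (0.653 to 0.769).

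Ltbp4, an organiser of elastic fibres that binds the Tgfb1 complex (GRCm38 chromosome 7, minus strand, 27305136 to 27337692), was the most abundant member, with an FPKM of 114 in Egln1_Tie2Cre, 96.6 in Egln1_Hif2a_Tie2Cre and 99.3 in Egln1_floxed. It made up 79.9%, 83.4% and 79.5% of the summed FPKM of this group in the same order, and its level was above 95.3% or more of all genes in each library. Egln1_Tie2Cre was 1.15 times Egln1_floxed (1.12 to 1.18), and Egln1_Hif2a_Tie2Cre was 0.973 times Egln1_floxed (0.950 to 0.997). Because Ltbp4 dominates the sum, the share of Ltbp2 stayed at 4.32% in Egln1_Tie2Cre, 0.908% in Egln1_Hif2a_Tie2Cre and 1.30% in Egln1_floxed.

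**Figure D2:**
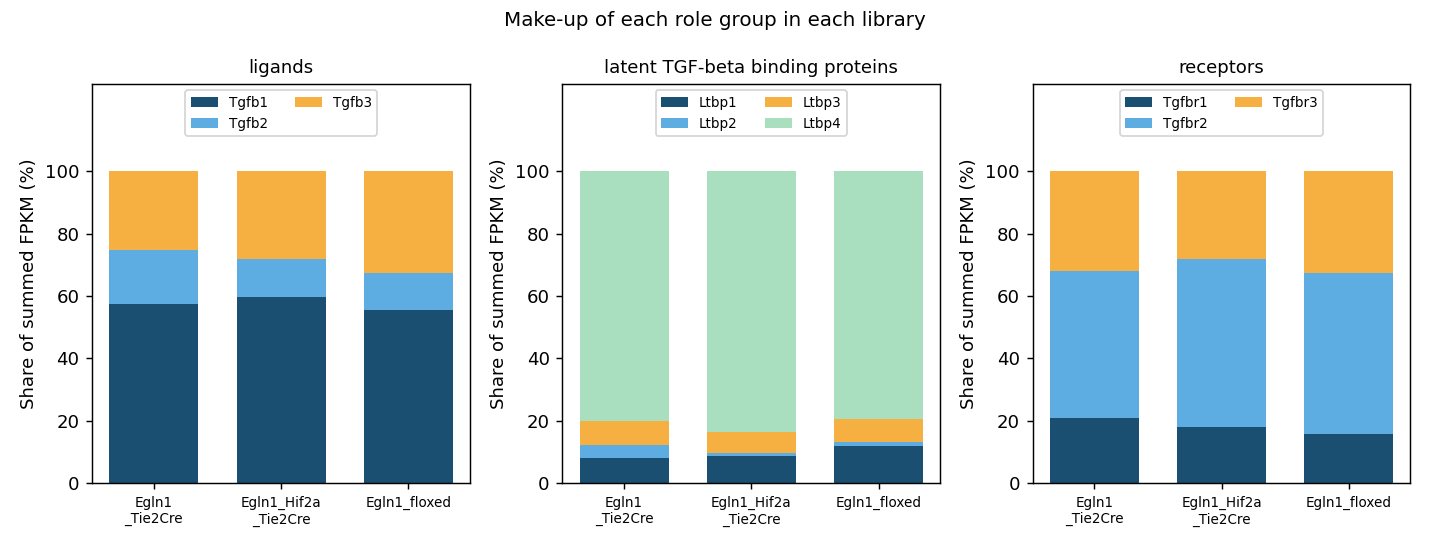
Share of the summed FPKM (%) taken by each gene within the ligands, the latent TGF-beta binding proteins and the receptors, with 1 stacked bar per library. Tgfb1 holds 55.6% to 59.6% of the ligands, Ltbp4 79.5% to 83.4% of the binding proteins and Tgfbr2 46.9% to 53.9% of the receptors.

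The receptors were the group in which no member was higher in a deleted library than in the control, except Tgfbr1 in Egln1_Tie2Cre when each library is given the same total (log2 ratio 0.06). Pericyte markers, measured beside them, had median log2 ratios of -0.33 in both deleted libraries over the control (7 of 7), with a summed FPKM of 255 in Egln1_Tie2Cre, 278 in Egln1_Hif2a_Tie2Cre and 272 in Egln1_floxed. Pdgfrb, Abcc9 and Cspg4 were lower in both deleted libraries and Rgs5 and Higd1b higher, and the part of pericytes in the receptor values was not tested. Tgfbr2, the ligand-binding type II receptor kinase (GRCm38 chromosome 9, minus strand, 116084293 to 116175360), had an FPKM of 11.5 in Egln1_Tie2Cre, 13.4 in Egln1_Hif2a_Tie2Cre and 16.6 in Egln1_floxed. It was the only member with its lowest value in Egln1_Tie2Cre, at 0.693 times Egln1_floxed (counting interval 0.634 to 0.758). Egln1_Hif2a_Tie2Cre lay between the others, at 0.807 times Egln1_floxed (0.745 to 0.873) and 1.16 times Egln1_Tie2Cre (1.06 to 1.27), a direction that turns with the same total in each library (log2 ratio -0.14).

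Tgfbr3, betaglycan, a co-receptor with no kinase domain (GRCm38 chromosome 5, minus strand, 107106570 to 107289629), had an FPKM of 7.89 in Egln1_Tie2Cre, 7.02 in Egln1_Hif2a_Tie2Cre and 10.5 in Egln1_floxed. Both deleted libraries were lower than the control, at ratios of 0.750 (0.691 to 0.814) and 0.667 (0.617 to 0.721). On the log2(FPKM + 1) scale the difference to the control in Egln1_Hif2a_Tie2Cre was -0.52, and 95.5% of genes kept had a higher or equal value.

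Tgfbr1, the type I receptor kinase that phosphorylates SMAD2 and SMAD3 (GRCm38 chromosome 4, plus strand, 47353222 to 47414931), had an FPKM of 5.15 in Egln1_Tie2Cre, 4.46 in Egln1_Hif2a_Tie2Cre and 5.16 in Egln1_floxed. Egln1_Tie2Cre and Egln1_floxed were at the same level (ratio 0.997, 0.893 to 1.12), and Egln1_Hif2a_Tie2Cre was 0.864 times Egln1_floxed (0.776 to 0.963). The summed receptor FPKM was 24.6 in Egln1_Tie2Cre, 24.9 in Egln1_Hif2a_Tie2Cre and 32.3 in Egln1_floxed.

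**Figure D3:**
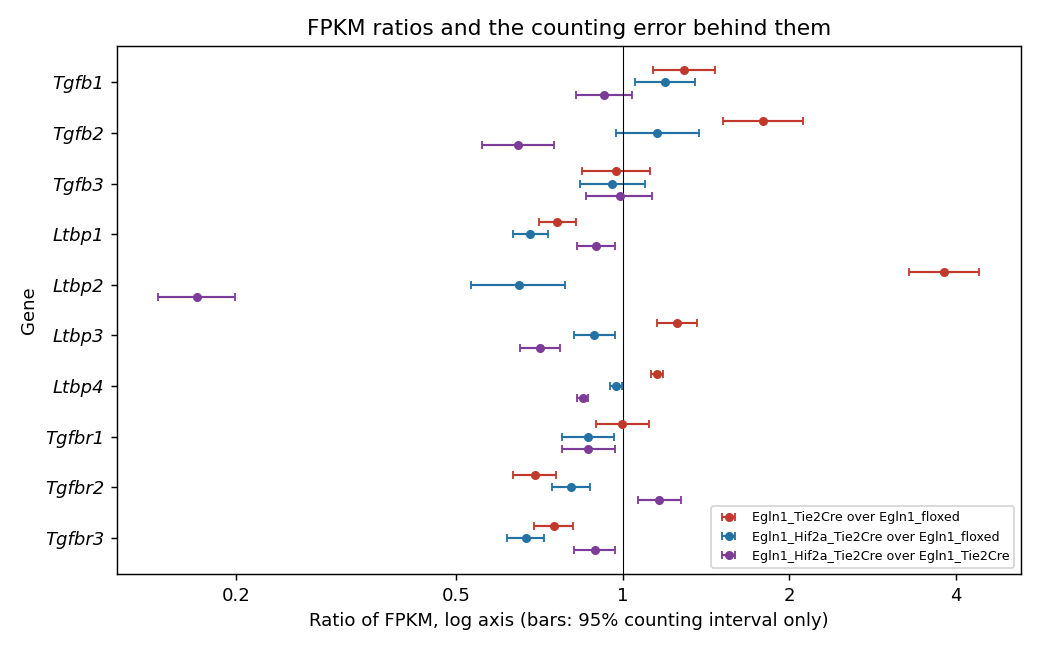
Ratio of FPKM (log axis) for each gene and pair of libraries, with bars for the 95% counting interval. The Ltbp2 ratios of 3.81 and 0.170 lie far outside the range of the other genes, and the 3 intervals of Tgfb3 all include 1.

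Read over all 10 genes on the log2(FPKM + 1) scale, 2 were at least 1.5-fold higher in Egln1_Tie2Cre than in Egln1_floxed (Ltbp2 and Tgfb2) and 0 were at least 1.5-fold lower. Of the 11978 genes kept for that pair (those averaging 1 FPKM or more), 9.46% were that much higher and 8.73% lower. Among the 11174 protein-coding genes kept, these shares were 7.55% and 8.50%. The members divided evenly around 0 (5 above, 5 below), with a median of 0.10 against 0.02 for all genes. By role, the median log2 ratio was 0.33 for the ligands, 0.25 for the binding proteins and -0.37 for the receptors.

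For Egln1_Hif2a_Tie2Cre over Egln1_floxed, 0 of the 10 genes passed 1.5-fold in either direction on the log2(FPKM + 1) scale, although Ltbp2 was 1.54-fold lower in plain FPKM, where the pseudocount does not act. Of the 11888 genes kept, 4.42% were higher and 3.28% lower. The members' median was -0.16 against -0.00377 for all genes, with 8 of 10 below 0. The median of all genes is itself below 0, and 45.3% of all genes were at or below the Ltbp4 value of -0.0389. Ltbp1 (-0.51), Tgfbr3 (-0.52) and Ltbp2 (-0.35) were lowest, and Tgfb1 (0.23) and Tgfb2 (0.14) were the members above 0.

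For Egln1_Hif2a_Tie2Cre over Egln1_Tie2Cre, 0 genes were at least 1.5-fold higher and Ltbp2 alone was at least 1.5-fold lower on the same scale, while Tgfb2 was 1.55-fold lower in plain FPKM. Of 11999 genes kept, 9.67% were higher and 9.64% lower, and with 10 genes the members' counts lie within about 1 gene of the share of all genes in each comparison. The median of the members was -0.16 against -0.02 for all genes, and 9 of 10 were below 0, all but Tgfbr2. The count includes Tgfb3 at -0.0166, above the median of all genes, and 50.6% of all genes were at or below that value. Tgfb2 was at -0.47 and Ltbp3 at -0.45. The 3 comparisons share libraries, so their values are not independent of each other.

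The authors' deposited tables give each of the 10 genes a q-value of 0.9996 in every comparison, so 0 passed 0.05. By the same q-value, 0.576% of genes kept passed for Egln1_Tie2Cre over Egln1_floxed, 0.0168% for Egln1_Hif2a_Tie2Cre over Egln1_floxed and 0.708% for Egln1_Hif2a_Tie2Cre over Egln1_Tie2Cre. It sets a single pool against a single pool and holds no information on the spread between mice.

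**Figure D4:**
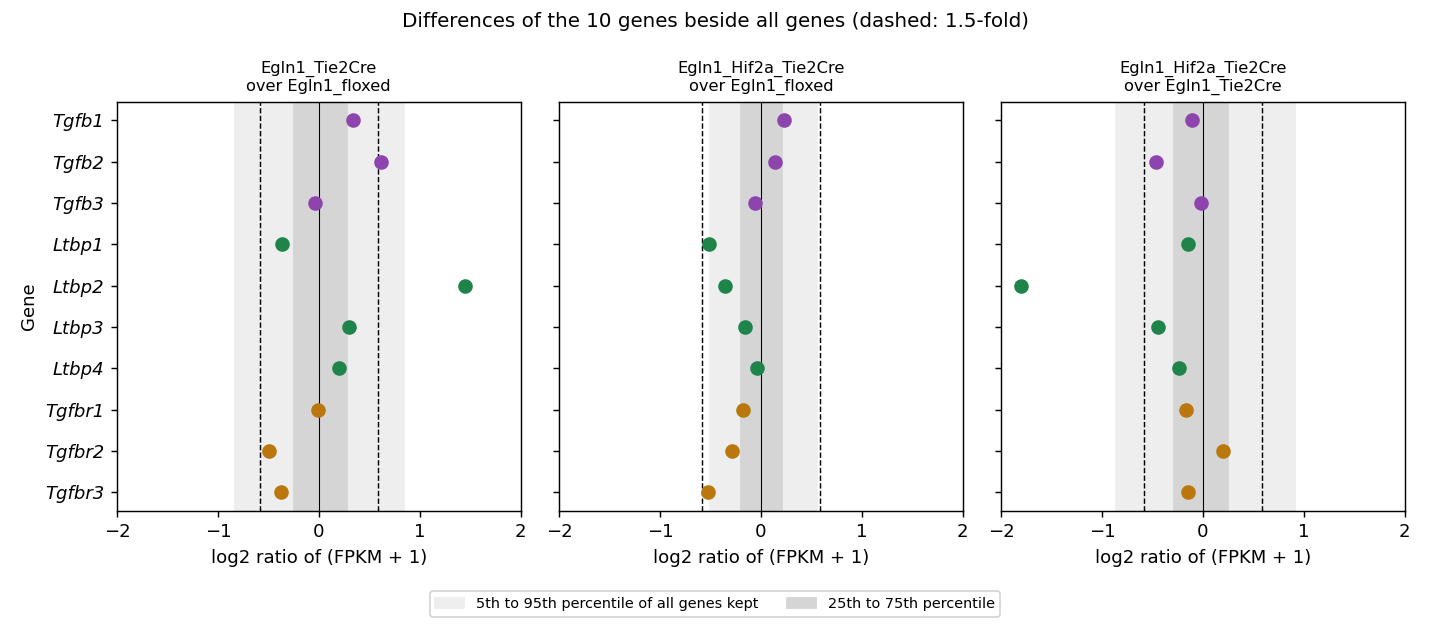
log2 ratio of (FPKM + 1) for each gene in the 3 comparisons, with grey bands for all genes kept, dashed lines at 1.5-fold, and ligands in purple, binding proteins in green and receptors in ochre. Ltbp2 lies at 1.45 and -1.81, well outside the 5th to 95th percentile band, in the comparisons that involve Egln1_Tie2Cre; Ltbp1 (-0.51) and Tgfbr3 (-0.52) lie just below the band for Egln1_Hif2a_Tie2Cre over Egln1_floxed.

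The genes nearest to Ltbp2 in their log2 ratios of both deleted libraries over the control, among 7889 genes averaging 5 FPKM or more, were Smad6, Aoc3, Myom2, Apod and Dedd. Smad6, an inhibitory SMAD, lay at a distance of 0.094, with an FPKM of 12.8 in Egln1_Tie2Cre, 3.30 in Egln1_Hif2a_Tie2Cre and 4.32 in Egln1_floxed. Aoc3, an amine oxidase of vascular smooth muscle and fat, was 12.3, 3.77 and 4.43. Myom2, a sarcomeric M-band protein, was 747, 255 and 329. Apod, a secreted lipid carrier, was 13.4, 4.26 and 5.50. Dedd, a death-effector-domain protein, was 17.3, 5.41 and 7.29, but the coding gene Nit1 overlaps 36.4% of its exon bases. Likeness over 3 libraries rests on only 2 ratios per gene and is a description. The pseudocount also lowers the ratio of Ltbp2 more than those of abundant genes. In plain FPKM, Egln1_Tie2Cre over Egln1_floxed was 3.81 for Ltbp2 and 2.96 for Smad6.

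Genes of the pathway around the members were read from lists written with earlier results of these data known. A list gene can be kept for a pair through 1 library alone, and genes low in both are not counted. Their counts at 1.5-fold stand beside those of all genes kept, of which 9.46% were higher and 8.73% lower for Egln1_Tie2Cre over Egln1_floxed. For Egln1_Hif2a_Tie2Cre over Egln1_floxed those shares were 4.42% and 3.28%, and for Egln1_Hif2a_Tie2Cre over Egln1_Tie2Cre 9.67% and 9.64%. Among protein-coding genes alone they were 7.55% and 8.50%, 3.96% and 2.88%, and 9.17% and 7.76%, in the order of these comparisons. Among 14 SMAD genes and SMAD regulators, 3 were at least 1.5-fold higher in Egln1_Tie2Cre than in Egln1_floxed and 0 lower; their median log2 ratio was 0.12. They were the inhibitory SMADs Smad6 (values above) and Smad7, and Pmepa1, a feedback inhibitor that binds SMADs. Smad7 had an FPKM of 15.3 in Egln1_Tie2Cre, 6.16 in Egln1_Hif2a_Tie2Cre and 6.16 in Egln1_floxed. Pmepa1 was 10.4, 9.76 and 6.03, high in both deleted libraries. Of the signal-carrying SMADs on the list, none was at least 1.5-fold higher in Egln1_Tie2Cre than in Egln1_floxed. Smad2 (8.86, 5.89 and 7.69) and Smad4 (19.0, 14.2 and 16.9) had the library order of Smad6 with smaller differences. Smad3 went the other way, at 2.22, 3.41 and 3.61. In Egln1_Hif2a_Tie2Cre over Egln1_Tie2Cre, 2 of the 14 were lower (Smad6 and Smad7) and 0 higher. In Egln1_Hif2a_Tie2Cre over Egln1_floxed, Pmepa1 was higher and Smurf1, a ubiquitin ligase that targets SMADs and the type I receptor, was lower at 6.50 against 10.4.

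Activators and anchors of the latent complex went both ways. Of 15 kept, 3 were at least 1.5-fold higher in Egln1_Tie2Cre than in Egln1_floxed (Thbs1, Mmp14, Tgm2) and 2 lower (Itgb6, Lrrc32), beside 9.46% and 8.73% of all genes, with a median of 0.01. Mmp14, a membrane metalloproteinase that can release TGF-beta, had an FPKM of 9.30 in Egln1_Tie2Cre, 4.56 in Egln1_Hif2a_Tie2Cre and 4.003 in Egln1_floxed. Tgm2, the transglutaminase that cross-links latent complexes to matrix, was 152, 57.1 and 77.6, with 21.8% of its exon bases overlapped by other genes. Thbs1, a matricellular activator of latent TGF-beta, was 3.04, 2.48 and 1.19. Lrrc32, which holds latent TGF-beta on the cell surface, was low in the Egln1_Tie2Cre library at 2.15, against 5.95 in Egln1_Hif2a_Tie2Cre and 4.29 in Egln1_floxed. Itgb6, the beta chain of an activating integrin, was 1.82, 3.98 and 3.62. The integrin chains Itgav (4.97, 5.88 and 5.15) and Itgb1 (237, 202 and 204) differed little. In Egln1_Hif2a_Tie2Cre over Egln1_floxed, Thbs1 was the only one of 15 past 1.5-fold, and in Egln1_Hif2a_Tie2Cre over Egln1_Tie2Cre 2 of 16 were higher and 3 lower.

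Of 9 co-receptors and other receptors of the superfamily kept, 1 was at least 1.5-fold higher in Egln1_Tie2Cre than in Egln1_floxed and 0 lower, close to the 9.46% and 8.73% of all genes. The 1 higher was Eng, endoglin, the endothelial co-receptor for TGF-beta and BMP9, with an FPKM of 117 in Egln1_Tie2Cre, 60.3 in Egln1_Hif2a_Tie2Cre and 65.5 in Egln1_floxed. Acvrl1, the endothelial type I receptor that works with endoglin, was 18.5, 18.9 and 13.7. Endothelial markers measured beside it had a summed FPKM of 412, 479 and 372 (10 of 10), with 0 past 1.5-fold in Egln1_Tie2Cre over Egln1_floxed; their part in the endoglin difference was not tested. Bmpr2, the type II BMP receptor, was lower in Egln1_Hif2a_Tie2Cre at 2.69, against 4.65 in Egln1_floxed. Of 11 other ligands and antagonists kept, 2 were higher in Egln1_Tie2Cre (Gdf15, a stress-induced cytokine, and Fstl3, a follistatin-like antagonist of activins) and 1 lower (Gdf10). Gdf15 and Fstl3 passed the minimum mean FPKM only through Egln1_Tie2Cre, and Gdf10 only through Egln1_floxed. Each of these calls therefore follows the library that let the gene in. Fstl3 was 5.15 in Egln1_Tie2Cre, 0.960 in Egln1_Hif2a_Tie2Cre and 0.695 in Egln1_floxed, with 47.3% of its exon bases overlapped by Prss57. Gdf15 was 4.99, 1.11 and 0.668, and Gdf10, a growth and differentiation factor, was 0.937, 0.955 and 2.297. Bmp4, a bone morphogenetic protein, was 7.17, 3.18 and 4.84, and Bmp2 was under 1 in all 3.

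Genes known to respond to TGF-beta included several that stood higher in Egln1_Tie2Cre. Leaving out the members on that list, 9 of 22 kept were at least 1.5-fold higher than in Egln1_floxed (40.9%) and 0 lower; the median log2 ratio was 0.18, where 9.46% of all genes kept were that much higher. The list was written with earlier results of these libraries known, and Smad7 and Pmepa1 also stand on the SMAD list, so the count is no independent evidence of a direction. Ctgf, a matricellular growth factor, had an FPKM of 60.4 in Egln1_Tie2Cre, 30.1 in Egln1_Hif2a_Tie2Cre and 31.5 in Egln1_floxed, and a noncoding gene overlaps 23.2% of its exon bases. Postn, periostin of activated fibroblasts, was 47.9, 24.1 and 22.5. Bhlhe40, a transcription factor that also responds to hypoxia, was 38.6, 22.5 and 18.3. Timp1, an inhibitor of metalloproteinases, was 9.81, 2.98 and 1.53. Not all were higher, and fibrillar collagens and smooth muscle actin were among those that were not. Col1a1 was 22.1, 19.0 and 20.8, Col3a1 was 47.1, 65.5 and 69.1, and Acta2, the smooth muscle actin of myofibroblasts, was 51.4, 90.6 and 64.1. In Egln1_Hif2a_Tie2Cre over Egln1_floxed, 2 of 21 were higher and 1 lower (all genes 4.42% and 3.28%), and in Egln1_Hif2a_Tie2Cre over Egln1_Tie2Cre 2 of 22 were higher and 7 lower (all genes 9.67% and 9.64%).

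**Figure D5:**
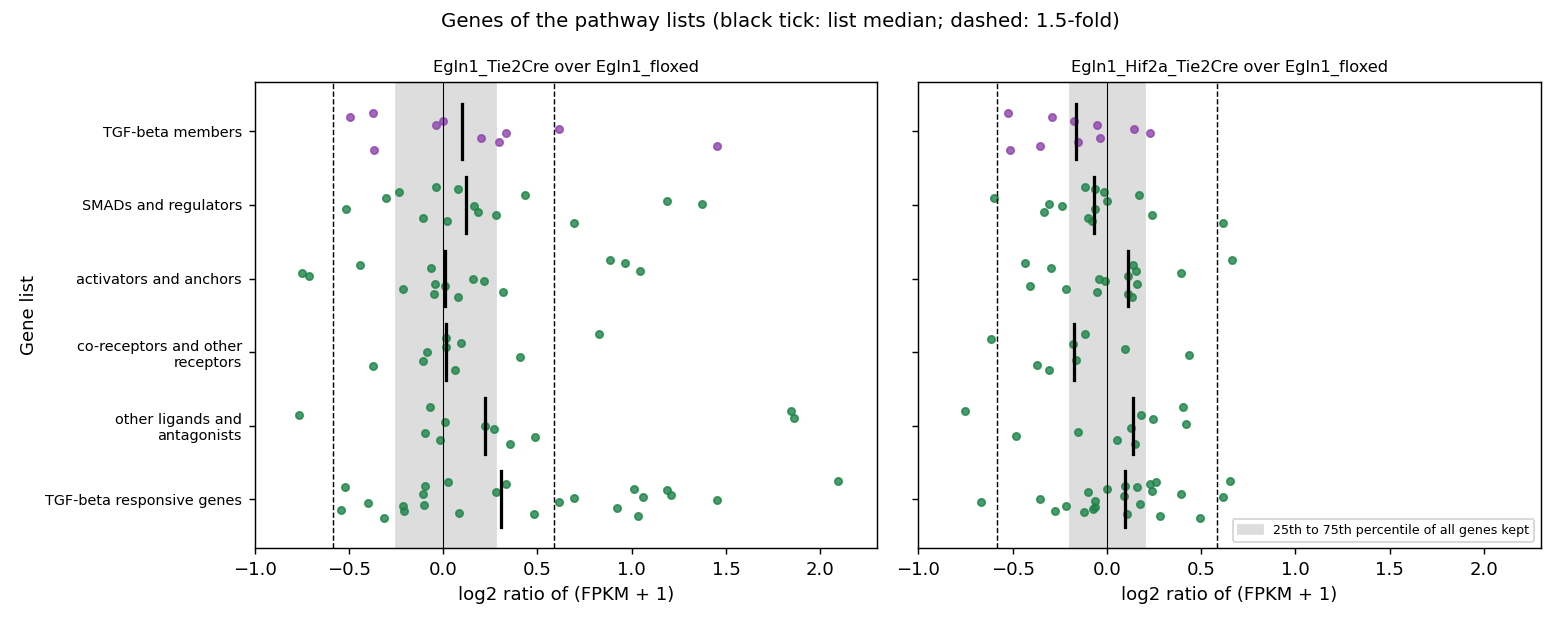
log2 ratio of (FPKM + 1) of each gene on 6 pathway lists, 1 point per gene, for both deleted libraries over Egln1_floxed, with black ticks at list medians and a grey band for the middle 50% of all genes. The responsive list (which also holds Ltbp2 and Tgfb1) has its median at 0.31 in Egln1_Tie2Cre and 0.09 in Egln1_Hif2a_Tie2Cre.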

How the data were processed

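RNA of left ventricle from 3 mice per genotype was pooled and sequenced on an Illumina instrument, per the labels. Reads were handled with TopHat2 and Cuffdiff, per the submitters' processing notes. Not given in the sources used here are their versions, the genome build, the annotation and the strand setting. The deposited values are FPKM, a ratio (fold) and a q-value for each pair of libraries, per the file headers. Columns were assigned by the sample titles in each table's name, and all 10 members had identical FPKM in both tables that hold a library.

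Ratios were computed as plain FPKM ratios and as log2 of (FPKM + 1) for genes averaging 1 FPKM or more over the pair. With 1 library per genotype no test was run. A pseudocount understates low genes. Fragments behind an FPKM were estimated from the step size of low values of 896 genes with 1 annotated transcript of over 2000 bases, after a length offset of 200 bases. The step search was tested on simulated data. Gene positions, lengths and overlaps come from GENCODE M21 (GRCm38), which may not be the authors' annotation. Software was Python 3.11.15, pandas 2.3.3, numpy 2.4.6, scipy 1.17.1 and matplotlib 3.10.9.

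Members and lists were chosen with earlier results of these data known. Named were all members, the first 2 measured genes of each pathway list, list genes at least 2-fold apart at an FPKM of at least 5, and the 5 genes most like Ltbp2. Smad4, Pmepa1, Smurf1, Thbs1, Itgb6, Bmpr2, Gdf15, Gdf10, Col1a1, Col3a1, Acta2 and the marker genes beside the members were added after their values were seen. Some genes that the rule names are left out and not reported here.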

Additional observations from a re-analysis of the deposited data

How the results depend on the processing

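No paired analysis was possible because each genotype has 1 pooled library, and leaving out a library leaves no comparison. Of the 30 ratios of single members, 23 kept their sign under every alternative run for them, and none of the ratios past 1.5-fold changed sign. The other 7 turned under 1 alternative each. With the same total, Egln1_Hif2a_Tie2Cre over Egln1_floxed became -0.04 for Tgfb1 and -0.06 for Tgfb2, Egln1_Tie2Cre over Egln1_floxed 0.02 for Tgfb3 and 0.06 for Tgfbr1, and Egln1_Hif2a_Tie2Cre over Egln1_Tie2Cre -0.14 for Tgfbr2. Subtracting the median of all genes gave 0.00665 for Tgfb3 (Egln1_Hif2a_Tie2Cre over Egln1_Tie2Cre), and centring by exon length 0.03 for Ltbp4 (Egln1_Hif2a_Tie2Cre over Egln1_floxed). The Egln1_Tie2Cre over Egln1_floxed ratios of Ltbp2 lay between 1.44 and 1.87 on the log2 scale and those of Tgfb2 between 0.59 and 0.81.

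Rescaling to the same total FPKM shifted the median of all genes to -0.26 for Egln1_Hif2a_Tie2Cre over Egln1_floxed and to -0.34 for Egln1_Hif2a_Tie2Cre over Egln1_Tie2Cre. The members' medians became -0.42 and -0.48, and 2 and 4 members were then at least 1.5-fold lower; relative to all genes the medians are close to those reported. A minimum mean FPKM of 5 removes Ltbp2 and Tgfb2: for Egln1_Tie2Cre over Egln1_floxed it left 0 members higher and a median of -0.0204, and for Egln1_Hif2a_Tie2Cre over Egln1_Tie2Cre 0 lower. A 2-fold threshold left 1 higher (Ltbp2). A pseudocount of 0.1 made 2 lower in Egln1_Hif2a_Tie2Cre over Egln1_Tie2Cre. Leaving out the 5 members with any exon overlap, chosen after seeing the data, left 0 higher, a median of -0.00336 for Egln1_Tie2Cre over Egln1_floxed and 0 lower for Egln1_Hif2a_Tie2Cre over Egln1_Tie2Cre, since Ltbp2 and Tgfb2 are among those left out. Centring within 10 bins of exon length, also added later, changed no count. No ratio has a replicate check, and pooling hides the spread between mice.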
